A study of Acomys cahirinus and Mus musculus with 6 samples.

Results

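T cells were the cells that the authors' deposited cell table names T-cells: 761 of 39577 cells in 6 single-cell libraries from healing ear punches of ear pinna skin, all in the authors' cluster 28. Of these libraries, 4 came from the spiny mouse Acomys cahirinus (strain given as wild-type) and 2 from CD1 mice, Mus musculus. The spiny mice had received an FGFR1/2/3 inhibitor, an ErbB2 inhibitor, an ERK inhibitor or, as the control, DMSO, given by injection between day 12 and day 15 (the labels do not say from when days were counted). The mice carried micro-beads soaked in PBS or in FGF2 and Nrg1, placed at day 10. The study asked what ERK signalling does in regeneration and fibrosis, per its title. Each group was 1 library, and the labels do not give how many animals it held, whether they were pooled, their age or the day of collection. No difference between groups therefore has a replicate check, no p-value is given, and the 95% intervals below cover counting error only. A gene is called higher or lower where the 2 libraries differ by at least 1.5-fold in CPM, with at least 30 UMIs over both. A UMI is a counted RNA molecule, and CPM is the usual scaling of a gene's UMIs to the summed UMIs of a library's T cells.

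A T cell recognises its target through a receptor of paired alpha and beta, or gamma and delta, chains, which reaches the surface only with the CD3 chains Cd3e, Cd3d, Cd3g and Cd247 that pass the signal inward. CD8 T cells and natural killer cells carry granzymes and perforin, the proteins with which they kill, and in mouse skin gamma-delta T cells are a large resident population. In wounds, T cells are a source of cytokines and growth factors that act on epidermis and stroma. CD3 separates T cells from natural killer cells, which share most of the killing genes but assemble no antigen receptor.

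The sequences below are the last 60 coding bases of the CD3 genes and of the receptor constant genes in the mouse annotation (GENCODE vM21, GRCm38), read 5′ to 3′ on the coding strand. They are shown because these 7 genes split the 2 species. UMIs of Cd3e, Cd3d and Cd3g were counted in both, but Trac, Trdc, Trbc1 and Trbc2 were at 0 in every spiny mouse cell. The 3′ kit counts a gene from the end of its transcript, and untranslated bases after the coding end are not shown. Where the counted reads fell was not examined. Capitals mark the 11 positions at which Trbc1 and Trbc2 differ within the stretch shown. Lower case letters carry no mark.
Cd3e: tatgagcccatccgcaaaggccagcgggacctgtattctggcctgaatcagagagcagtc
Cd3d: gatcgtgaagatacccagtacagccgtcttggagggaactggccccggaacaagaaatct
Cd3g: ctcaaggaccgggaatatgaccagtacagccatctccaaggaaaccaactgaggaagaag
Trac: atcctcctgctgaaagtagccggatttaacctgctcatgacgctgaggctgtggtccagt
Trdc: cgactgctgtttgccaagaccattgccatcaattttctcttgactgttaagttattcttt
Trbc1: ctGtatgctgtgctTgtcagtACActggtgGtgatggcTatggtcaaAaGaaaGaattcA
Trbc2: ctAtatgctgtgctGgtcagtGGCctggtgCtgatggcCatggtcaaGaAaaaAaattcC

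The 3 CD3 genes lie side by side on mouse chromosome 9: Cd3g at chr9:44969572-44980431 (minus strand), Cd3d at chr9:44981786-44987339 (plus) and Cd3e at chr9:44998740-45009627 (minus). Trdc (chr14:54142851-54148868) and Trac (chr14:54220521-54224206) share a locus, as do Trbc1 (chr6:41538218-41539881) and Trbc2 (chr6:41546730-41548352), whose coding parts are identical at 495 of 518 positions. Counts of Trbc1 and Trbc2 are therefore uncertain where reads fall in the shared stretches. Over all cells the spiny mouse libraries held 1974 UMIs of Cd3e, 2062 of Cd3d and 1604 of Cd3g, and the mouse libraries 225, 396 and 497. The mouse libraries also held 108 UMIs of Trac, 269 of Trdc, 304 of Trbc1 and 1578 of Trbc2. Of the 11 genes of the T cell receptor and CD3 complex list in the table, 7 were at 0 in all spiny mouse cells, as were the natural killer receptors Ncr1 and Klrb1c and the transcription factor Tcf7. Which reference the spiny mouse reads were aligned to is not given in the sources used here, so a 0 in that species may be a gene that could not be counted, and no ratio is drawn between the species.

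At the median, T cells were shallower than their libraries, which differed in depth. The median T cell held 1399.5 UMIs under DMSO, 4184 under the ERK inhibitor, 1937 under the ErbB2 inhibitor, 2080 under the FGFR inhibitor, 3114.5 with PBS beads and 2308.5 with FGF2 and Nrg1 beads, against library medians of 3125 to 6915. Summed T cell UMIs ranged from 83343 (19 cells, ERK inhibitor) to 600873 (332 cells, DMSO). No barcode was shared between T cells of 2 libraries (184 of 39393 barcodes were over all cells), and no doublet caller was run.

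T cells made up 2.16% of the DMSO library (332 of 15363 cells; exact Clopper-Pearson interval 1.94 to 2.40), 3.01% of the ERK inhibitor library (19 of 631; 1.82 to 4.66), 1.20% of the ErbB2 inhibitor library (128 of 10632; 1.005 to 1.43) and 2.30% of the FGFR inhibitor library (110 of 4782; 1.89 to 2.77). With PBS beads the share was 1.17% (36 of 3065; 0.824 to 1.62), and with FGF2 and Nrg1 beads 2.66% (136 of 5104; 2.24 to 3.14). The ErbB2 inhibitor library was low among the spiny mouse libraries, and the PBS bead library was the lower of the mouse pair. Among the annotated blood cell types alone, T cells were 26.7% (24.3 to 29.3), 15.1% (9.33 to 22.5), 22.7% (19.3 to 26.3) and 26.8% (22.5 to 31.3) in the same order of spiny mouse libraries, so the intervals of DMSO and the ErbB2 inhibitor met on this base and that of the ERK inhibitor lay below DMSO. The mouse shares were 7.48% (5.30 to 10.2) and 9.74% (8.24 to 11.4) of blood cells, with intervals that also met. Among cells that were not keratinocytes, follicle or gland, the ErbB2 inhibitor stayed below DMSO (5.32%, 4.45 to 6.29, against 8.26%, 7.43 to 9.16). The ERK inhibitor was at 9.18% (5.62 to 14.0) and the FGFR inhibitor at 9.92% (8.22 to 11.8) on that base. PBS beads were at 2.33% (1.63 to 3.205), below the 3.999% (3.365 to 4.71) with FGF2 and Nrg1 beads. A share of cells cannot separate more T cells from fewer cells of other types, and the number of cells recovered ranged from 631 to 15363.

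**Figure D1:**
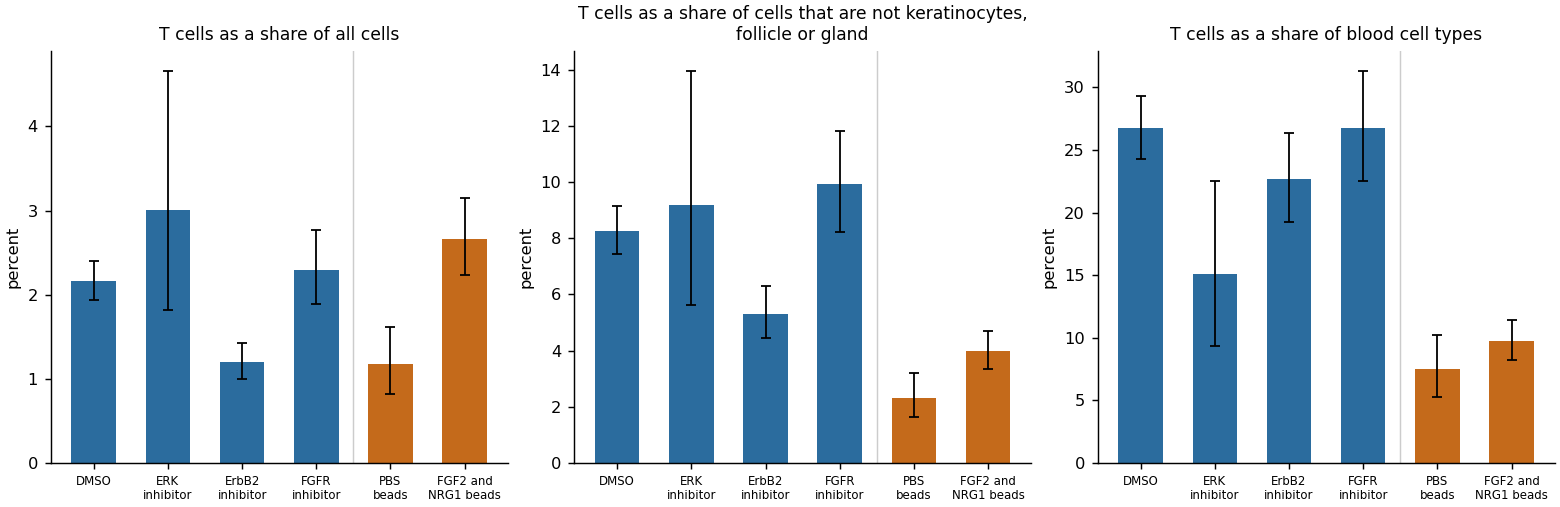
T cells as a percent of all cells of a library (left), of cells that are not keratinocytes, follicle or gland (middle) and of the annotated blood cell types (right). There is 1 bar per library with the exact 95% interval of counting. The ErbB2 inhibitor library is low on the left (1.20%) and in the middle (5.32% against 8.26% under DMSO). It meets the DMSO interval on the right (22.7% against 26.7%).

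By CD3, the name T cell held for most of the annotated cells in the spiny mouse. A UMI of Cd3e, Cd3d or Cd3g was present in 295 of 332 T cells under DMSO (88.9%; 85.0 to 92.0), 19 of 19 under the ERK inhibitor, 122 of 128 under the ErbB2 inhibitor (95.3%) and 106 of 110 under the FGFR inhibitor (96.4%). In endothelial cells, taken as a type without CD3 (2978 cells in all), the shares were 2.25%, 0%, 1.86% and 0.417%, at median depths of 1769 to 3366 UMIs. With each cell thinned to 1000 UMIs, the DMSO share was 83.1%. The leading genes against all other spiny mouse cells were Pmch, Cd247, Gimap7, Sit1, Cd40lg, Klri1, Cd3e, Cd3d, Cd3g and Skap1, most of them known from lymphocytes. Since the cells were clustered on such genes, this is a description. By summed UMIs, T cell markers led over all other marker lists in 1 DMSO cell, 1 ErbB2 inhibitor cell and 7 FGFR inhibitor cells, but in 19 of 19 ERK inhibitor cells, because keratinocyte markers were counted in the T cells of the first 3 libraries.

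In the mouse the annotated T cells were a mixture, and there the data went partly against the name. CD3 was detected in 26 of 36 cells with PBS beads (72.2%; 54.8 to 85.8) and 82 of 136 with FGF2 and Nrg1 beads (60.3%; 51.6 to 68.6), although these cells were deeper than the DMSO T cells. The leading mouse genes were Gzma, Nkg7, Ncr1, Sh2d1a, Gzmb, Il2rb, Mcpt8, Cd3e, Gm2682 and Csrp3. Cells without CD3 that had at least 2 of 6 cytotoxic genes (Gzma, Nkg7, Ccl5, Prf1, Klrd1, Ctsw) numbered 5 with PBS beads (13.9%; 4.67 to 29.5) and 31 with FGF2 and Nrg1 beads (22.8%; 16.04 to 30.8). All of them carried Ncr1, a receptor of natural killer cells. Cells without CD3 that had at least 2 genes of a basophil list numbered 5 (13.9%) and 22 (16.2%; 10.4 to 23.5). That list holds the protease Mcpt8, the IgE receptor chains Ms4a2 and Fcer1a, and Csrp3. Every Mcpt8 UMI of the mouse T cells, 30 and 41, lay in that class, as did all 8 and 42 UMIs of Csrp3. Both genes are on the list that defines the class, so this was largely set by the rule. Of the same list, Hdc had 3 UMIs, Gata2 1 and Il4 1 in cells with CD3 with FGF2 and Nrg1 beads. Cd200r3 had 1 there with PBS beads. These classes were set after their values were seen. In the spiny mouse under DMSO, the same rules put 23 cells with cytotoxic genes and 2 with genes of the basophil list outside CD3. Those counts were 5 and 0 under the ErbB2 inhibitor, 4 and 0 under the FGFR inhibitor and 0 and 0 under the ERK inhibitor. The 2 DMSO cells held 8 UMIs of Cpa3, 4 of Hdc and 2 of Gata2, which are mast cell markers too. They held 0 of Mcpt8, Ms4a2, Fcer1a and Csrp3. CD3 was found in 39 of 62 DMSO cells with cytotoxic genes and in 256 of 270 without them. The counts were 16 of 21 and 106 of 107 under the ErbB2 inhibitor, and 18 of 22 and 88 of 88 under the FGFR inhibitor. Under the ERK inhibitor they were 4 of 4 and 15 of 15. Ncr1 and Klrb1c had no UMIs in this species, so they could not tell natural killer cells from T cells there.

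**Figure D2:**
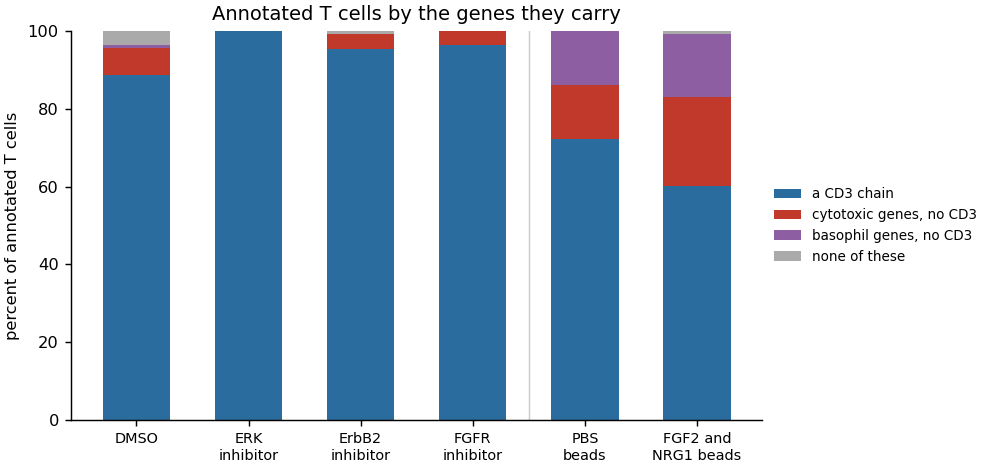
Annotated T cells of each library split by the genes they carry: CD3, cytotoxic genes without CD3, basophil genes without CD3, or none of these, in percent of the library's T cells. CD3 covers 88.9% to 100% in the 4 spiny mouse libraries and 72.2% and 60.3% in the 2 mouse libraries.

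Receptor type and coreceptor also described the cells. In the mouse, a constant chain of the alpha-beta receptor (Trac, Trbc1 or Trbc2) was detected in 30 of 36 T cells with PBS beads and 97 of 136 with FGF2 and Nrg1 beads, against 2.02% and 1.28% of endothelial cells. Endothelial cells are a low background for this set. Trbc2 alone was found in 31.5% and 25.4% of suprabasal epidermis cells, and in 27.0% and 20.1% of hair germ and outer bulge cells. A gamma-delta chain was detected in 7 of 36 (19.4%; 8.19 to 36.0) and 47 of 136 (34.6%; 26.6 to 43.2), against 0.867% and 0.638% of endothelial cells, and the intervals overlap. Since 6 and 39 cells had chains of both kinds, these genes do not part the cells into 2 kinds. Among the cytotoxic cells without CD3, Trdc gave 5 UMIs in 2 of 5 cells and 15 in 13 of 31, while Trac gave 0 in both. The beta chain genes were also counted in these cells. Trbc1 gave 7 UMIs in 3 cells with PBS beads and 32 in 17 with FGF2 and Nrg1 beads, and Trbc2 3 in 2 and 8 in 7.

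Cd8a and Cd8b1, the chains of the CD8 coreceptor, were frequent in the spiny mouse and rare in the mouse clusters. One or both were detected in 105 of 332 T cells under DMSO (31.6%; 26.7 to 36.9), 8 of 19 under the ERK inhibitor (42.1%; 20.3 to 66.5), 46 of 128 under the ErbB2 inhibitor (35.9%; 27.7 to 44.9) and 49 of 110 under the FGFR inhibitor (44.5%; 35.1 to 54.3). With cells thinned to 1000 UMIs the shares were 25.7%, 42.1%, 29.5% and 36.1%, and the intervals of all 4 overlap. In the mouse 1 of 36 and 11 of 136 T cells had a CD8 UMI. Cd4, the coreceptor of helper T cells, was found in 8, 0, 8 and 10 spiny mouse T cells and in 7 and 16 mouse T cells, and at this depth a cell without Cd4 UMIs may still express it.

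The killing genes sat in few cells. Gzma, the granzyme A gene (chr13:113093825-113100981 in the mouse), gave 1051 UMIs in 59 of 332 T cells under DMSO, 142 in 1 of 19 under the ERK inhibitor, 443 in 13 of 128 under the ErbB2 inhibitor and 478 in 14 of 110 under the FGFR inhibitor. Cells with at least 2 of the 6 cytotoxic genes numbered 62, 4, 21 and 22, and 36, 4, 13 and 17 of them had a CD8 UMI. Under DMSO, the 23 cytotoxic cells without CD3 held 398 Gzma UMIs and, in 14 of them, 26 UMIs of Cd8a, so the lack of a CD3 UMI did not separate cells without CD8. Their median depth was 1056 UMIs, against 1468 in cells with CD3.

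**Figure D3:**
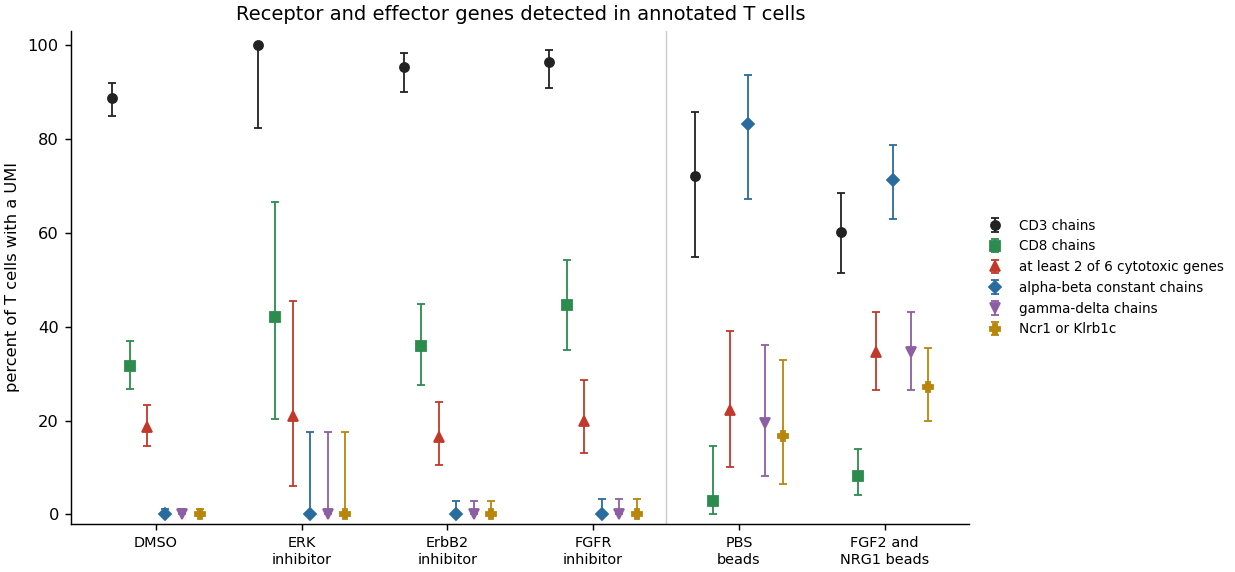
Percent of annotated T cells with at least 1 UMI of the named receptor and effector genes in each library, with exact 95% intervals of counting. CD8 chains are found in 31.6% to 44.5% of spiny mouse T cells, and gamma-delta chains and the natural killer receptor pair Ncr1 and Klrb1c have UMIs in the mouse libraries only.

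Keratinocyte RNA differed between the spiny mouse libraries in a way that touches every comparison with DMSO. All 15 keratinocyte markers had UMIs in DMSO T cells and made up 4.55% of their UMIs, against 2.90% under the ErbB2 inhibitor (15 of 15 markers), 1.53% under the FGFR inhibitor (15 of 15) and 0.215% under the ERK inhibitor (11 of 15). The share was not set by a few cells: the median DMSO T cell was at 4.74% (lowest 0.744, highest 11.7), and the median cell under the FGFR inhibitor at 1.47% (0.384 to 4.76). In mouse T cells it was 0.477% with PBS beads and 0.429% with FGF2 and Nrg1 beads. A T cell with more foreign RNA has a lower CPM for all of its own genes. The share of the difference that this makes was estimated by subtracting from each library's T cells its summed profile, scaled to the keratinocyte UMIs they held. The scale was the keratinocyte share in T cells over that in the whole library: 0.5575 under DMSO, 0.3014 under the ErbB2 inhibitor and 0.1835 under the FGFR inhibitor. It assumes that each keratinocyte UMI came with RNA of the whole library's composition, and by construction it raises T cell genes most in DMSO. This setting was added after the data were seen.

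The CD3 chains had their lowest CPM in DMSO, the library with most keratinocyte RNA. Cd3e stood at 1012 CPM under DMSO (608 UMIs in 216 cells), 2364 under the ERK inhibitor (197 in 18 cells), 1483 under the ErbB2 inhibitor (453 in 105) and 1606 under the FGFR inhibitor (393 in 89). Cd3d stood at 1142, 1884, 1359 and 1839, and Cd3g at 824, 1476, 1123 and 1434, in the same order. The order of the 4 libraries by keratinocyte share, from most to least, was DMSO, ErbB2 inhibitor, FGFR inhibitor and ERK inhibitor, and the level of each CD3 chain went up along it. Median T cell depth (1399.5, 1937, 2080 and 4184 UMIs) and the share of cells with CD3 (88.9%, 95.3%, 96.4% and 100%) went up in the same order. These cannot be told apart with 4 libraries, and the cause was not tested. In the mouse, Cd3e was at 524 and 446, Cd3d at 542 and 582, and Cd3g at 1178 and 928 CPM with PBS and with FGF2 and Nrg1 beads.

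**Figure D4:**
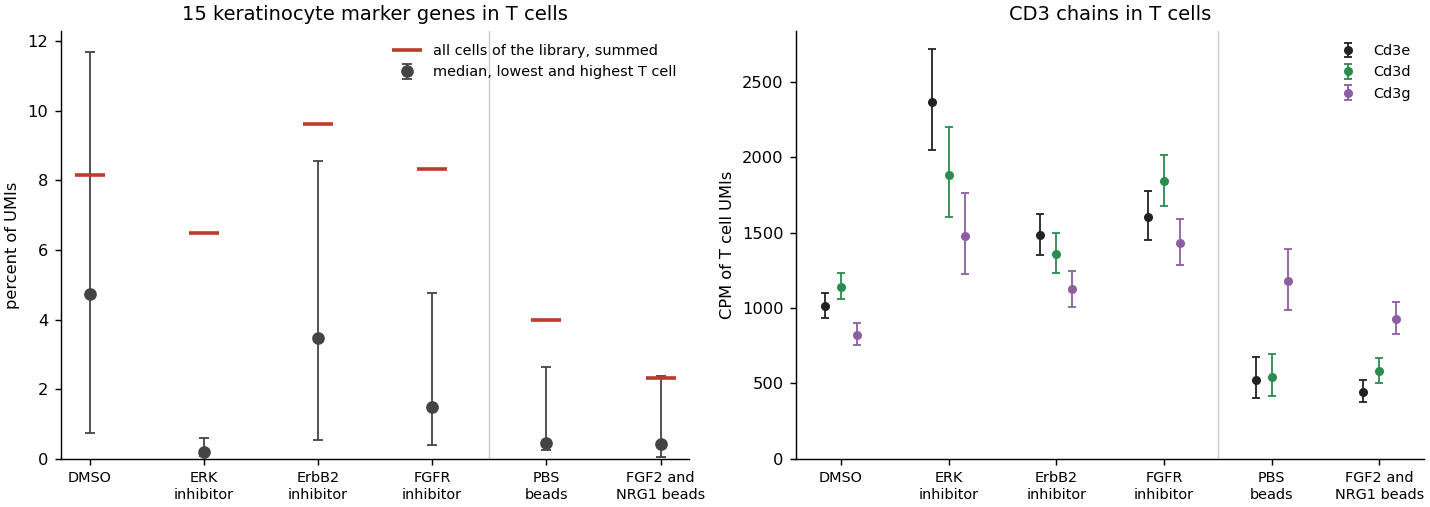
Left, the percent of UMIs from 15 keratinocyte markers in the T cells of each library (point, median cell; bars, lowest and highest cell) and in all its cells summed (red line). Right, the CPM of the 3 CD3 chains in T cells, with exact 95% Poisson intervals of counting: in the 4 spiny mouse libraries they run opposite to the keratinocyte share, with Cd3e at 1012 under DMSO (4.55% keratinocyte UMIs) and 2364 under the ERK inhibitor (0.215%). Median T cell depth, not drawn, rises in the same order as the CD3 chains.

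With 19 cells the ERK inhibitor library was too small for gene lists to be read, so only T cell markers and receptor genes are given. Lck, the kinase that starts receptor signalling, stood at 432 CPM (36 UMIs in 18 of 19 cells) against 216 under DMSO (130 in 100 of 332 cells). Icos, a costimulatory receptor of activated T cells, stood at 276 (23 UMIs) against 64.9 (39 UMIs in 35 cells). Nkg7, a granule protein of killer lymphocytes, stood at 372 against 498. Skap1, an adaptor behind the receptor, stood at 324 (27 UMIs in 10 cells) against 143 (86 in 66 cells). Of these genes and the CD3 chains, all but Nkg7 were at higher levels in the library whose T cells held least keratinocyte RNA. The part of that RNA in these differences was not tested for this library.

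ErbB2 inhibition was compared with DMSO over 3681 genes, of which 12.2% were higher and 10.4% lower by at least 1.5-fold, with a median log2 ratio of 0.05. Of the CD3 genes, 0 of 3 passed 1.5-fold: the log2 ratio was 0.55 for Cd3e (0.37 to 0.73), 0.25 for Cd3d (0.07 to 0.43) and 0.45 for Cd3g (0.24 to 0.65). Of 13 genes of receptor signalling, 4 were higher and 0 lower (median 0.49). The highest among those named was Skap1, with 87 UMIs in 54 cells against 86 in 66 cells (0.99; 0.55 to 1.44), followed by Lck with 105 against 130 UMIs (0.67; 0.28 to 1.05). The adaptor Lat, at 108 against 179 UMIs, did not pass (0.25; -0.11 to 0.60). With free RNA subtracted, the median of the CD3 list was -0.18 and that of the signalling list -0.09, so neither list stood above 0 in that setting.

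Costimulatory receptors stood higher under the ErbB2 inhibitor. Of 5 genes of the regulatory T cell list, 4 were higher and 0 lower (median 0.75, and 0.13 with free RNA subtracted). Icos gave 51 UMIs in 33 of 128 cells against 39 in 35 of 332, a log2 ratio of 1.36 (0.73 to 2.00) that was 0.72 with free RNA subtracted. Tnfrsf18 gave 83 UMIs against 97 (0.75; 0.31 to 1.19), Tnfrsf9 38 against 45 (0.74; 0.07 to 1.39), and Tnfrsf4 151 against 242 (0.30; -0.01 to 0.59). These receptors are carried by activated T cells as well as regulatory ones. Foxp3, the factor that defines regulatory T cells, gave 3 UMIs under DMSO and 0 under the ErbB2 inhibitor.

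The cytotoxic list showed little difference under the ErbB2 inhibitor: 2 of 9 genes were higher and 0 lower (median 0.13). Cd8a, at 494 against 441 CPM, had a log2 ratio of 0.17 (-0.13 to 0.46), Nkg7, at 439 against 498, of -0.18 (-0.49 to 0.12), Ccl5, a T cell chemokine, at 517 against 474, of 0.13 (-0.16 to 0.41), and Gzma, at 1450 against 1749, of -0.27 (-0.43 to -0.11). With free RNA subtracted the list median was -0.50. Of 6 genes of lymph node homing and memory, 3 were higher and 1 lower. The interleukin 7 receptor gene Il7r gave 98 UMIs in 47 cells against 115 in 71 (0.75; 0.34 to 1.15). Dapl1 was the lower one, with 288 UMIs against 999 (-0.81; -1.01 to -0.63), and it was also detected in 85.2% of DMSO endothelial cells. Of 4 residency genes, Cd69, an early activation and retention receptor, was higher (36 against 40 UMIs; 0.83; 0.13 to 1.51) and S100a4 lower (585 against 1801; -0.64; -0.78 to -0.51), and S100a4 was found in 94.5% of DMSO endothelial cells.

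The activation list went both ways under the ErbB2 inhibitor, with 3 of 11 genes higher and 3 lower (median 0.12), and Junb, Nfkbia, Ier2 and Btg2 all within 1.5-fold. Of 6 interferon response genes 1 was higher (median 0.53, and -0.01 with free RNA subtracted). In the MHC class I list, 2 of 4 genes were higher, among them H2-T23 (76 against 82 UMIs; 0.87; 0.40 to 1.33), while B2m, the shared light chain, was at 0.08 (-0.05 to 0.21). Il16, a T cell cytokine, gave 40 UMIs in each library (0.98; 0.31 to 1.64). Rora, a nuclear receptor of innate-like lymphocytes, was lower, with 45 UMIs against 150 (-0.74; -1.27 to -0.27). Of 20 cell cycle genes, 4 were higher and 1 lower (median 0.18, and -0.48 as a mean over cells). Top2a, which untangles replicated DNA, gave 88 UMIs in 13 cells under the ErbB2 inhibitor and 115 in 48 under DMSO.

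Of the 8 genes with the highest ratios under the ErbB2 inhibitor, Retnla, Gzmn and Ccn2 sat in few cells and Capg, Rad18, Sirpb1c, Fkbp5 and Grap2 in 16 to 36 cells each. Retnla gave 61 UMIs in 1 cell against 11 in 11 cells (3.35; 2.51 to 4.52), and without the cell that held most in each library the ratio was -2.48. Gzmn, a granzyme gene, gave 146 UMIs in 3 cells, 117 of them in 1, against 32 in 6 cells (3.13; 2.61 to 3.77; 1.64 without that cell). Capg, an actin capping protein, was spread over 36 cells with 49 UMIs, against 26 UMIs in 25 DMSO cells (1.87; 1.18 to 2.64). Grap2, an adaptor of receptor signalling, gave 24 UMIs in 21 cells against 15 in 15 (1.62; 0.66 to 2.69). Without the cell with most UMIs the ratio was 1.86 for Capg, 1.71 for Rad18, 1.49 for Sirpb1c, 1.56 for Fkbp5 and 1.53 for Grap2.

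The lowest ratio was that of Pmch, with 0 UMIs against 68 in 5 DMSO cells (at least 11.5-fold lower). The lowest genes also included the keratins Krt27 and Krt17, the junction protein Jup, and the mast cell proteases Mcpt4 and Tpsb2. Krt27 gave 0 UMIs against 44 (at least 7.46-fold lower, with 3 counts as the floor), Krt17 27 against 279 (-2.35; -3.02 to -1.82) and Jup 24 against 251 (-2.36; -3.08 to -1.80). Mcpt4 gave 2 UMIs against 157 (-4.74; -8.38 to -3.44), of which 118 lay in 1 DMSO cell, and Tpsb2 3 against 92 (-3.56; -6.27 to -2.37). The keratinocyte share of T cell UMIs (2.90% against 4.55%) moved with the keratins and Jup. The mast cell markers moved with the proteases, with 7 of 9 present under DMSO at 0.0484% of UMIs and 5 of 9 under the ErbB2 inhibitor at 0.00262%.

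FGFR inhibition was compared with the same DMSO library, so its ratios share that library's T cells with those of the ErbB2 inhibitor. Over 3536 genes, 17.4% were higher and 14.5% lower by at least 1.5-fold (median log2 ratio 0.06). All 3 CD3 genes were higher, at 0.67 for Cd3e (0.48 to 0.85), 0.69 for Cd3d (0.51 to 0.86) and 0.80 for Cd3g (0.60 to 1.0), and of 13 receptor signalling genes 9 were higher and 0 lower (median 0.74). Cd2, an adhesion receptor that helps the T cell bind its partner, gave 72 UMIs in 44 of 110 cells against 76 in 62 of 332 (1.22; 0.73 to 1.70). With free RNA subtracted, Cd3e was at -0.18, Cd3d at -0.16, Cd3g at -0.05 and Cd2 at 0.38, and the list medians were -0.16 for the CD3 complex and -0.08 for signalling. The direction of the CD3 genes thus turned with that setting.

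The cytotoxic list had 7 of 9 genes higher under the FGFR inhibitor and 0 lower (median 0.89, and 0.04 with free RNA subtracted). Cd8a, at 817 against 441 CPM, had a log2 ratio of 0.89 (0.62 to 1.16), and Cd8b1, with 20 UMIs in 9 cells against 13 in 9, of 1.88 (0.84 to 3.05). Ccl5 stood at 797 against 474 (0.75; 0.48 to 1.02) and Ctsw, a cathepsin of killer cells, at 208 against 123 (0.77; 0.21 to 1.29). With free RNA subtracted, Ccl5 turned to -0.097 and Ctsw to -0.082. Nkg7 and Gzma were within 1.5-fold (0.41 and 0.16). The coreceptor genes thus passed 1.5-fold and the most abundant granule genes did not, while the share of cells with a CD8 UMI overlapped that of DMSO.

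Genes of costimulation, homing and residency were mostly higher under the FGFR inhibitor as counted, while the regulatory and homing medians were below 0 with free RNA subtracted. Of 5 genes of the regulatory T cell list 4 were higher and 0 lower (median 0.83, and -0.016 with free RNA subtracted): Tnfrsf18 gave 84 UMIs against 97 (1.09; 0.65 to 1.53), Tnfrsf4 175 against 242 (0.83; 0.54 to 1.11), Icos 30 against 39 (0.93; 0.18 to 1.64) and Tnfrsf9 31 against 45 (0.77; 0.05 to 1.45, and 0.07 without the cell with most). Foxp3 gave 3 UMIs in each library. Of 7 homing genes, 4 were higher and 1 lower, with Il7r at 429 against 191 CPM (1.17; 0.77 to 1.56) and S1pr1, the receptor for exit from tissue, at 89.9 against 41.6 (1.12; 0.22 to 2.00). Dapl1 was the lower one (140 against 999 UMIs; -1.53; -1.80 to -1.28). With free RNA subtracted the homing median was -0.29, with Il7r at 0.32 and S1pr1 at 0.43, and Tnfrsf4 was at -0.016 and Tnfrsf9 at -0.057. Of 6 residency genes 4 were higher and 0 lower (median 0.87, and 0.13 with free RNA subtracted).

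Rgs1, a brake on chemokine receptor signals that marks resident T cells, had the largest ratio to DMSO after Gzmn. It gave 42 UMIs in 20 of 110 cells under the FGFR inhibitor, 19 in 15 of 332 under DMSO, 10 in 8 of 128 under the ErbB2 inhibitor and 12 in 1 of 19 under the ERK inhibitor. The log2 ratio of FGFR inhibitor to DMSO was 2.40 (1.63 to 3.31), and it was 2.42 without the cell with most UMIs, 2.16 at 1000 UMIs per cell and 1.56 with free RNA subtracted. In endothelial cells Rgs1 was found in 0.417% under the FGFR inhibitor and 0.409% under DMSO. Rgs1 was therefore higher in every setting named here, unlike the CD3 genes. The other genes with the highest ratios were Fgl2, Retsat, Cytip, Tspan2, Cd8b1 and Ly9, at 1.86 to 2.14. Fgl2, a secreted protein of T cells and myeloid cells, gave 26 UMIs in 23 cells against 14 in 14 cells. Cytip, a scaffold of lymphocyte adhesion, gave 27 in 22 against 17 in 17, and Ly9, a lymphocyte surface receptor, 30 in 27 against 20 in 20. Gzmn led all of them (219 UMIs in 3 cells against 32 in 6; 4.03; 3.53 to 4.65), with 139 UMIs in 1 cell.

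Of the 15 ERK feedback and target genes, 1 reached 30 UMIs in this comparison: Ier3, an early response gene, which was lower. It gave 81 UMIs in 45 of 332 cells under DMSO, 0 under the ERK inhibitor, 39 in 12 of 128 cells under the ErbB2 inhibitor and 6 in 6 of 110 under the FGFR inhibitor. The log2 ratio to DMSO was -2.25 (-3.95 to -1.28) for the FGFR inhibitor and -0.06 (-0.67 to 0.49) for the ErbB2 inhibitor, or -1.53 for the latter without the cell with most UMIs. Ier3 was also found in 24.1% of DMSO endothelial cells and 13.6% of DMSO T cells, and how much of its T cell UMIs was free RNA is not given here. Its FGFR inhibitor ratio was not among those that turned with free RNA subtracted. Furin, a protease that matures growth factors such as Tgfb1, was also lower under the FGFR inhibitor, with 5 UMIs against 54 under DMSO (-1.90; -3.82 to -0.83). It was found in 25.9% of DMSO endothelial cells. Under the ErbB2 inhibitor Furin gave 16 UMIs (-0.72; -1.68 to 0.05), past 1.5-fold lower with an interval that spans 0. Tgfb1 itself gave 43 UMIs in 33 cells under the FGFR inhibitor against 52 in 45 under DMSO (1.03; 0.40 to 1.63).

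Division genes were lower under the FGFR inhibitor: of 19 cell cycle genes, 0 were higher and 8 lower (median -0.51). Top2a gave 26 UMIs in 5 of 110 cells (4.55%) against 115 in 48 of 332 (14.5%), Mki67 13 in 4 cells against 65 in 35, and Cdk1 2 in 2 cells against 45 in 31. Stmn1, a tubulin regulator of dividing cells, stood at -0.48 (-0.78 to -0.21), while the chromatin genes H2afz and Hmgb2, which resting cells express too, stood at 0.07 and 0.34. Endothelial cells of the same libraries had Top2a in 4.17% under the FGFR inhibitor and 13.4% under DMSO, close to the T cell shares in each library. The list median was -0.42 with free RNA subtracted, -0.05 at 1000 UMIs per cell and -0.94 as a mean over cells. At 1000 UMIs per cell fewer genes were tested. That median may therefore rest on fewer list members than the others, and it does not show what depth alone did.

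Genes that present antigen on MHC class I were counted next. Of 4, 3 were higher under the FGFR inhibitor (median 0.68, and 0.05 with free RNA subtracted), with B2m at 3784 CPM against 2273 (0.74; 0.61 to 0.86). Of 6 interferon response genes 3 were higher (median 0.56). The activation list had 3 of 11 genes higher and 1 lower (median 0.32). The lowest ratio was that of Pmch, a leading gene of the spiny mouse T cells, with 0 UMIs against 68 in 5 DMSO cells (at least 9.23-fold lower). Most of the others named are known from epidermis, hair or mast cells. Jup gave 13 UMIs against 251 (-2.87; -3.91 to -2.18), Krt27 0 against 44 (at least 5.97-fold lower), Krtap11-1 0 against 31 (at least 4.21-fold lower) and Mcpt4 3 against 157 (-4.01; -6.71 to -2.84). Keratinocyte markers were at 1.53% of T cell UMIs against 4.55% beside them.

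**Figure D5:**
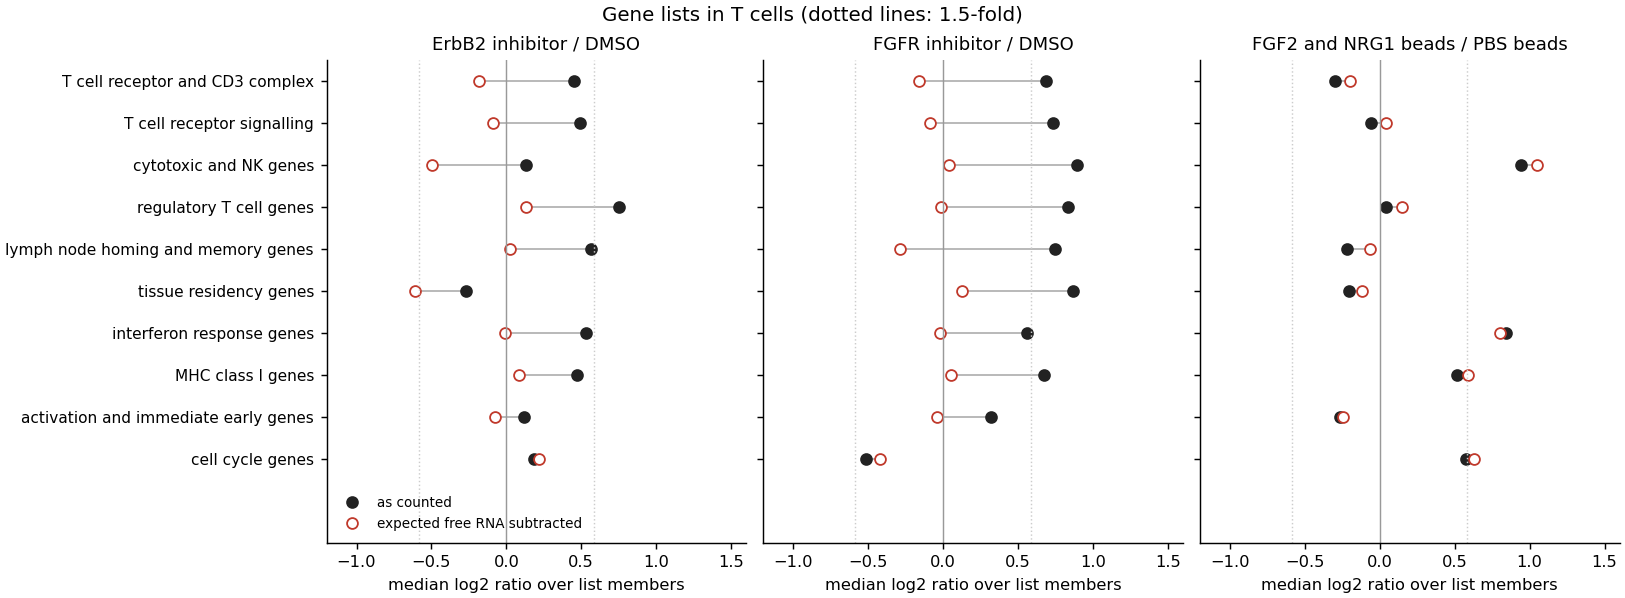
Median log2 ratio over the tested members of 10 gene lists in T cells for each comparison, as counted (filled) and with expected free RNA subtracted (open), with dotted lines at 1.5-fold. The receptor lists move from above to below 0 in both inhibitor comparisons, whereas the cytotoxic list stays at 0.95 and 1.05 in the bead comparison.

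Beads with FGF2 and Nrg1 were compared with PBS beads over 2436 genes, of which 11.3% were higher and 10.4% lower by at least 1.5-fold (median -0.02). Keratinocyte markers were at like levels here (0.429% and 0.477% of T cell UMIs), and the cytotoxic list had the highest median of the lists tested. Of 10 tested, 9 were higher with FGF2 and Nrg1 beads and 0 lower (median 0.95, and 1.05 with free RNA subtracted). The PBS bead library had 36 annotated T cells, so a few cells weigh heavily on each of its levels.

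Gzmb, the granzyme B gene (chr14:56258838-56262260), gave 0 UMIs in the 36 T cells with PBS beads and 86 in 23 of 136 with FGF2 and Nrg1 beads, at least 10.1-fold higher with 3 counts as the floor. Of the 86, 60 lay in 12 cells with CD3 and 26 in 11 cytotoxic cells without it. Ccl5 (chr11:83525778-83530518) stood at 4938 CPM (1629 UMIs in 45 cells) against 1848 (215 in 7), a log2 ratio of 1.41 (1.21 to 1.63), with 1278 of its UMIs in 29 cytotoxic cells without CD3 and 350 in 15 cells with CD3. Gzma stood at 2398 (791 in 30 cells) against 997 (116 in 5), a ratio of 1.26 (0.98 to 1.56). Nkg7 stood at 1197 against 653 (0.86; 0.52 to 1.25), and Ncr1 at 437 (144 UMIs in 37 cells) against 206 (24 in 6; 1.03; 0.45 to 1.77). Cytotoxic cells without CD3 were 22.8% of the annotated T cells with FGF2 and Nrg1 beads and 13.9% with PBS beads, with overlapping intervals. Most UMIs of Ccl5, Gzma and Ncr1 lay in them. Ccl5 and Gzma are among the 6 genes that define these cells, so their place was partly set by the rule. Ncr1 and Gzmb are not among the 6, and more UMIs of Gzmb lay in cells with CD3.

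Receptor genes went both ways with FGF2 and Nrg1 beads, with list medians below 0. Of 10 genes of the receptor and CD3 complex, 1 was higher and 2 lower (median -0.30). Over all genes tested, 11.3% were higher and 10.4% lower. Trac gave 58 UMIs in 36 of 136 cells against 39 in 16 of 36 (-0.94; -1.54 to -0.31) and Trbc1 165 against 95 (-0.71; -1.08 to -0.33), while Trbc2 was at -0.55 (-0.84 to -0.25) and Trdc at -0.36 (-0.75 to 0.07). Both lower genes are alpha-beta chains, and all Trac UMIs lay in cells with CD3. Cells with CD3 were 60.3% of the annotated cells against 72.2%. Of 16 signalling genes 0 were higher and 3 lower (median -0.06), among them Cd28, the main costimulatory receptor (37 against 26; -1.01; -1.76 to -0.21). Gata3, a factor of T helper and innate lymphoid cells, was also lower (21 against 18; -1.29; -2.26 to -0.29), whereas Icos gave 45 UMIs against 25 (-0.68; -1.39 to 0.11), an interval that spans 0.

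Ly6a, the Sca-1 surface protein that marks activated mouse T cells, was among the 8 highest ratios. Within cells that had CD3 it gave 129 UMIs in 34 of 82 cells with FGF2 and Nrg1 beads and 6 in 5 of 26 with PBS beads. Over all annotated T cells the counts were 148 in 43 cells against 6 in 5 (2.91; 1.96 to 4.59). Ly6a was found in 78.2% and 72.5% of endothelial cells, which express it, so the endothelium does not measure its background. Ifi27l2a, an interferon response gene, gave 182 UMIs in 30 cells against 17 in 9 (1.84; 1.20 to 2.73), and 3 of 5 interferon response genes were higher and 0 lower (median 0.84). Of 7 MHC class I genes, 2 were higher and 0 lower (median 0.52), with H2-D1 at 0.62 (0.42 to 0.83) and B2m at 0.52 (0.24 to 0.81).

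Among genes of interleukin 17 producing cells, all UMIs of 5830411N06Rik, Cd163l1 and Blk lay in cells with CD3. Of 7 type 17 genes, 3 were higher and 1 lower (median 0.57). The scavenger receptor genes 5830411N06Rik and Cd163l1, known from gamma-delta T cells of this kind, differed from each other: 5830411N06Rik gave 33 UMIs in 8 cells against 0 (at least 3.88-fold higher), and Cd163l1 41 in 16 cells against 19 in 4 (-0.43; -1.21 to 0.47). Blk, a kinase of the same cells, gave 34 UMIs in 19 CD3 cells against 7 in 3. The residency receptor Cxcr6 stood at 0.30 (-0.14 to 0.81), and of 7 residency genes 1 was higher and 0 lower (median -0.20). Of 4 cell cycle genes tested 2 were higher (median 0.58), among them H2afz (350 UMIs against 80; 0.61; 0.27 to 0.99).

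The other large ratios of the bead comparison were of several kinds. The neutrophil genes S100a9 and S100a8 gave 146 and 94 UMIs against 2 and 3 (4.11; 2.81 to 7.75 and 3.07; 1.87 to 5.77), while 9 of 10 neutrophil markers were present at 0.104% of T cell UMIs against 5 of 10 at 0.0249%. Spp1 gave 32 UMIs against 0 and Fn1 32 against 1 (2.54; 0.91 to 8.84), and both turned below 0 with free RNA subtracted. Klra4, a Ly49 receptor of natural killer cells, gave 45 UMIs in 19 cells against 2 in 1 (2.44; 1.05 to 6.08). The lowest were led by mt-Nd6 (-1.87), Taok1 (-1.58) and Gm42418 (2806 UMIs against 2626; -1.41), the last an abundant ribosomal RNA-like transcript found in every cell of both libraries. Orai1, the calcium channel that receptor signalling opens, gave 18 UMIs against 16 (-1.34; -2.39 to -0.27).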

How the data were processed

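The authors' deposited tables hold raw UMI counts, as whole numbers, and were used with the authors' cell annotation. The submitters' processing notes name Cell Ranger 6.1.1 and GRCm38/mm10, and whether that reference served the spiny mouse reads is not given in the sources used here. Per the labels' protocols, cells were dissociated with a protease, freed of red blood cells and run on a 10x 3′ v3.1 kit. Library size, mitochondrial percent and cluster columns are the authors' deposited values and the percent columns served for no test. The fewest genes in a deposited cell were 501. T cells were summed per library over 20381 genes, scaled to CPM, and compared as log2 ratios with a pseudocount of 1 UMI and exact conditional binomial intervals at 95%. The scripts were tested on simulated data. No doublet caller was run. Named genes were the 8 highest and 8 lowest ratios at 30 UMIs or more whose interval excluded 0 and that were not at the level of free RNA (under 3 times the lowest other type and over 10-fold below the highest, types of at least 15 cells), the 4 members of each list with most UMIs, and the T cell markers. Foxp3, Cd4, Blk, Top2a, Mki67 and Cdk1 fall outside this rule and were chosen after their values were seen. Lists were read where both libraries had 30 T cells. Members and lists were chosen with earlier results of these data known. Alternatives covered pseudocount, filter, fold, scaling, depth, cells used and free RNA. Python 3.11.15, numpy 2.4.6, pandas 2.3.3, scipy 1.17.1 and matplotlib 3.10.9 were used.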

Additional observations from a re-analysis of the deposited data

How the results depend on the processing

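The count of genes past 1.5-fold (832 under the ErbB2 inhibitor, 1126 under the FGFR inhibitor, 528 with beads) followed the filters: in that order 334, 523 and 138 at 60 UMIs, 2234, 2632 and 2050 at 10 UMIs, 241, 439 and 126 at 2-fold, and 445, 595 and 160 at 1000 UMIs per cell, where fewer genes were tested. With free RNA subtracted it was 500 for the FGFR inhibitor. Under that setting the FGFR inhibitor medians turned to -0.16 (CD3 complex), -0.085 (signalling), -0.016 (regulatory), -0.29 (homing) and -0.041 (cytokines). Its genes turned to -0.16 (Cd3d), -0.18 (Cd3e), -0.049 (Cd3g), -0.067 (Skap1), -0.14 (Ccr6), -0.097 (Ccl5), -0.016 (Tnfrsf4), -0.022 (Psmb8), -0.057 (Tnfrsf9), -0.041 (Ltb), -0.082 (Ctsw) and 0.44 (Krtap11-1 and Anxa4), and with beads Spp1 and Fn1 turned to -1.40. Tnfrsf9 under the FGFR inhibitor was also -0.0039 when cells weighed equally, and -0.30 with the deepest cell left out, and Xcl1 was -1.24 in CD3 cells. Retnla under the ErbB2 inhibitor was -2.48 without its top cell. With beads, Pcna was -0.31 at 1000 UMIs per cell and the type 2 median 1.96 at 10 UMIs. The cause was not tested beyond these settings.

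T cell shares (DMSO, ERK, ErbB2 and FGFR inhibitor, PBS, FGF2 and Nrg1 beads) were 26.7%, 15.1%, 22.7%, 26.8%, 7.48% and 9.74% of blood cell types. Without keratinocytes, follicle and gland they were 8.26%, 9.18%, 5.32%, 9.92%, 2.33% and 3.999%. With a CD3 UMI required they were 1.92% under DMSO and 1.61% with FGF2 and Nrg1 beads. Where T cell markers had to outnumber other types' they were 0.00651% (DMSO), 0.00941% (ErbB2 inhibitor), 0.146% (FGFR inhibitor), 0.816% (PBS) and 1.63% (FGF2 and Nrg1). CD3 was detected in 83.1% of DMSO T cells at 1000 UMIs. No paired analysis was possible because each group was 1 library. Lists were not recomputed on cells in which T cell markers lead, nor the bead comparison on CD3 cells, for lack of cells. Depth limits single genes: at 36 and 19 cells, a UMI in 1 cell moves a level.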

Other observations

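Trbc2, named for the T cell receptor beta chain, was also counted in mouse keratinocytes. With PBS beads the cells annotated as suprabasal epidermis held 470 Trbc2 UMIs in 154 of 489 cells (31.5%), against 147 in 25 of 36 T cells (69.4%). With FGF2 and Nrg1 beads they held 252 in 120 of 472 cells (25.4%), against 285 in 73 of 136 T cells (53.7%). Trbc1, its near-identical neighbour, gave 7 UMIs in 5 and 1 UMI in 1 of those suprabasal cells, against 95 and 165 in T cells. The pattern was chosen after its values were seen, and its cause was not tested.

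Some genes sat in very few spiny mouse T cells. Pmch, which encodes the precursor of melanin-concentrating hormone, gave 68 UMIs in 5 DMSO T cells, all with CD3 and 1 with CD8, and 69 in the whole DMSO library, and 0 in the T cells of the other 5 libraries. Gzmn gave 32 UMIs in 6 DMSO T cells, 146 in 3 under the ErbB2 inhibitor and 219 in 3 under the FGFR inhibitor. Nlrp2 was found in 31 DMSO T cells, 19 of them with a CD8 UMI, and in 12 under each of the ErbB2 and FGFR inhibitors, 9 and 12 of them with CD8. Klri1, a killer cell lectin-like receptor, was found in 15 DMSO T cells, 11 with CD8, in 4 under the ErbB2 inhibitor, 3 with CD8, and in 5 under the FGFR inhibitor, all with CD8. Klri1 and Nlrp2 were chosen after their values were seen.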
